A study of Mus musculus with 5 samples.

Results

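The regions described here are 4168 peaks of TEAD binding in mouse fibroblasts. They were selected on 3 measurements: a TEAD pileup (extended ChIP tags stacked at the peak summit) under 50, at least 1 bp shared with a peak of RNA polymerase II (RNAPol2), and no bp shared with any YAP or Myc peak. They made up 8.58% of the 48571 TEAD peaks. Of the TEAD peaks, 38970 had a pileup under 50, 29152 of these held neither YAP nor Myc (weaker TEAD-only peaks), and 14.3% of the 29152 overlapped RNAPol2 (95% Wilson interval, counting error only, 13.9% to 14.7%), beside 33.9% of all 48571 TEAD peaks. The remaining 24984 weaker TEAD-only peaks, without RNAPol2, serve as the comparison. The TEAD pileup, the RNAPol2 overlap and the lack of YAP and Myc chose these peaks, so those values are given as a description and with no test.

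The cells were 3T9 cells of the genotype 3T9MycER, immortalized embryonic fibroblasts of the mouse, in which MycER, a Myc protein switched on by 4-hydroxytamoxifen (OHT), was activated with 400 nM OHT. A doxycycline-inducible YAP mutant, YAPS127A, had been added to the line by viral infection and drug selection, and it was induced with 2 µg/ml doxycycline. Both inductions were present in all 4 ChIP-seq samples, so no peak below can be set against cells without active MycER or YAPS127A. Each antibody (TEAD, RNAPol2, Myc and YAP) had 1 sample, and a further sample was labelled as input, with an IgG in its antibody field and no treatment in its title. Chromatin for TEAD, RNAPol2 and Myc was fixed with 1% formaldehyde, whereas that for YAP was fixed with DSG before formaldehyde, so a missing YAP peak and this difference in fixation cannot be told apart. The lists held 48571 TEAD, 49650 RNAPol2, 14354 Myc and 10293 YAP peaks, called from 31770727, 38345189, 20441605 and 29528304 tags in that order, against 1 control library of 60189064 tags. With no second sample of any antibody, differences below have no replicate error and no p-value, and every interval covers counting error alone.

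TEAD proteins are the DNA-binding partners through which YAP, a coactivator with no DNA-binding domain of its own, reaches chromatin. YAPS127A lacks a phosphorylation site that holds YAP in the cytoplasm, and is therefore an active form. RNAPol2 transcribes protein-coding genes, piles up just downstream of many promoters and is also found at active enhancers; the N20 antibody recognises the N-terminal end of its largest subunit, whatever its phosphorylation. Myc is a basic helix-loop-helix factor that binds mainly at active promoters.

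The TEAD signal at these peaks was close to that at weaker TEAD-only peaks without RNAPol2. The same limit on pileup was set for both groups, so their likeness in height is bound up with the selection. With RNAPol2 the pileup ran between 13 and 49 with a median of 25, and without RNAPol2 between 14 and 49 with a median of 25. The median TEAD fold enrichment, the pileup over the local control background, was 6.66 with RNAPol2 (quartiles 5.47 and 8.29) and 6.68 without (quartiles 5.68 and 8.38). The TEAD peaks were somewhat wider where RNAPol2 was present, with a median of 311 bp (95% interval 307 to 316) and 280 bp (279 to 282) where it was absent. The control background, as a multiple of its lowest level in the TEAD list, had a median of 1.17 with RNAPol2 and 1.09 without. Its part in the widths was not tested.

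RNAPol2 overlap changed little over the range of TEAD signal that the selection allowed. The share of TEAD-only peaks with RNAPol2 was 14.4% at TEAD pileups of 13 to 19, 13.7% at 20 to 29, 14.8% at 30 to 39 and 16.1% at 40 to 49. Above the limit it was 18.6% at pileups of 50 to 74, 20.4% at 75 to 99 and 32.6% (24.0% to 42.6%) at 100 or more, where 95 TEAD-only peaks were left. Under the limit, which caps height and not width, the share changed more over the width of the TEAD peak than over its height. It was 11.5% for weaker TEAD-only peaks under 250 bp and 26.6% for those of 600 bp or more. A longer peak has more bases that can meet another peak, and the part of length was not tested.

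Myc was the factor that most weaker TEAD peaks with RNAPol2 held, and YAP was far less common among them. Of the 11813 TEAD peaks with a pileup under 50 and RNAPol2, 35.3% held neither factor, 60.9% held Myc and 10.7% held YAP. Without RNAPol2, 8.002% of 27157 TEAD peaks under that pileup held Myc or YAP. Along the TEAD pileup, the Myc share of TEAD peaks with RNAPol2 stayed between 56.6% and 61.5% in all 7 bands. The YAP share among those without Myc was 1.88% at pileups of 13 to 19, 4.64% at 20 to 29, 14.5% at 30 to 39 and 28.2% at 40 to 49, and it reached 95.3% at 100 or more. The peaks with neither factor accordingly made up 39.2% of TEAD peaks with RNAPol2 in the lowest band, 27.7% in the band just under the limit and 1.91% in the highest.

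**Figure D1:**
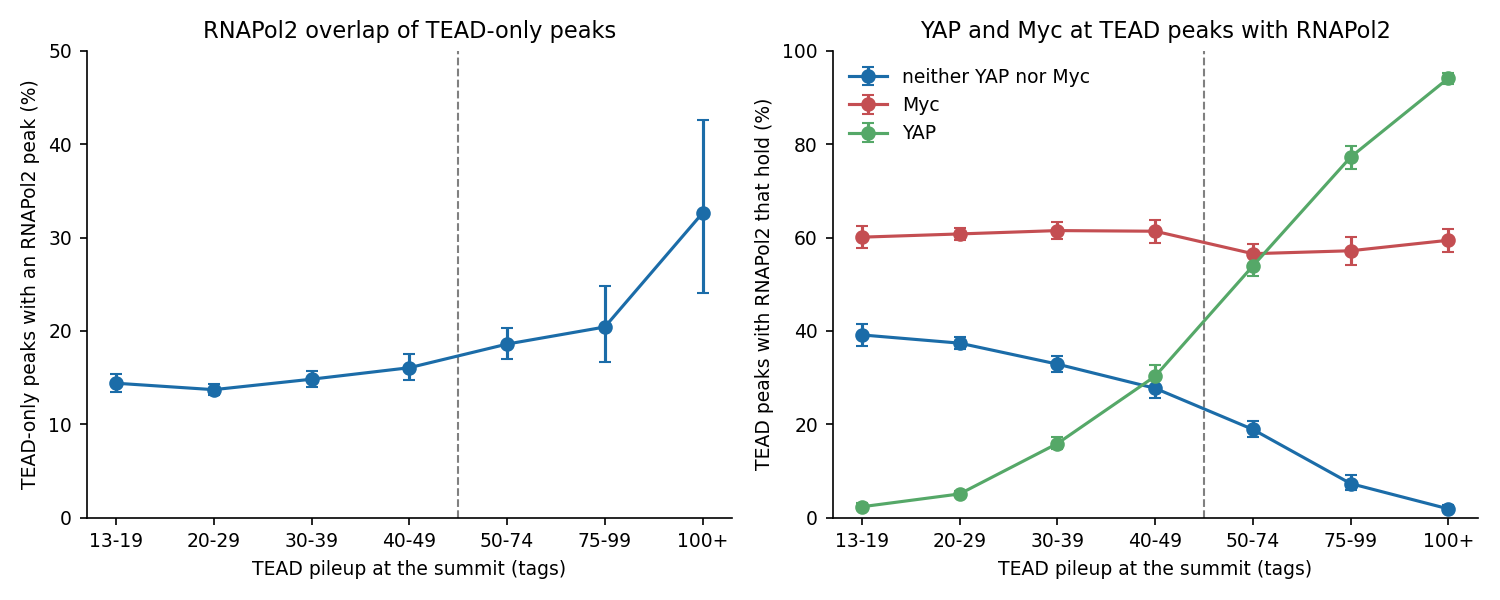
Left, the percentage of TEAD-only peaks that overlapped an RNAPol2 peak, and right, the percentage of TEAD peaks with RNAPol2 that held neither YAP nor Myc, Myc, or YAP, by band of TEAD pileup (tags at the summit). Points are shares, bars are 95% Wilson intervals (counting error), and the dashed line marks the pileup of 50 under which peaks were selected; the Myc share stayed between 56.6% and 61.5%, while the share with neither factor was 39.2% in the lowest band and 1.91% in the highest.

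The limit of 50 fell within a continuous range. The 24 selected peaks at a pileup of 49 had a median TEAD fold enrichment of 11.18 and a median RNAPol2 fold enrichment of 5.57. The 32 TEAD-only peaks with RNAPol2 at a pileup of 50 had medians of 12.28 and 6.07. Just inside the limit, ordered by fold enrichment, were chr12:100574777-100575393, chr5:31204358-31204741 and chr7:7123870-7124584 (mm9 here and throughout), each with a TEAD fold enrichment of 15.59. Just outside were chr12:54989220-54990082, chr17:29477954-29478324 and chr18:38480726-38481095, each with 15.91. The control background was at 1.00 times its lowest level at all of these sites, so 15.59 and 15.91 follow from the pileups of 49 and 50. The value of 15.59 was also the highest of any selected peak, and chrX:92853702-92854055 shared it at the same pileup. On the overlap criterion, 31 selected peaks shared 10 bp or fewer with RNAPol2, the median shared length was 253 bp, and 37 weaker TEAD-only peaks without RNAPol2 lay within 10 bp of an RNAPol2 peak. On the criterion of no Myc or YAP, 28 selected peaks lay within 10 bp of such a peak.

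The RNAPol2 peak at these sites was of intermediate height, and its spread was wide. Counted per TEAD peak, the RNAPol2 fold enrichment ran between 2.53 and 83.09 with a median of 8.35 (95% interval 7.95 to 8.58) and quartiles of 5.28 and 17.27. Weaker TEAD peaks with Myc and no YAP had a median of 22.2 (n = 6383), and those with both Myc and YAP had 20.1 (n = 815). Weaker TEAD peaks with YAP and no Myc had 6.52 (6.22 to 7.24, n = 447), and stronger TEAD-only peaks had 6.69 (6.14 to 7.38, n = 484). The weaker TEAD-only sites as a whole lay above both of these classes and below both classes with Myc. Their median combined unlike kinds of site. It was 22.8 at the 1207 sites whose RNAPol2 peak also held Myc or YAP outside the TEAD peak. At the other 2961 it was 6.28 (6.10 to 6.49). The classes with 6.52 and 6.69 were not split this way, so 6.28 cannot be ranked against them. The RNAPol2 peak held Myc at 19.2% of the first class, and Myc or YAP at 13.6% of the second. Stronger TEAD-only peaks whose RNAPol2 peak held neither had medians of 5.89 (5.67 to 6.28, n = 324) at pileups from 50 to below 75. Those from 75 to below 100 had 6.28 (n = 67), and those from 100 had 7.15 (n = 27). When the whole RNAPol2 list was split at its quartiles of fold enrichment (4.53, 5.57 and 9.28), 13.6% of the selected peaks fell in the lowest group, 14.9% in the second, 26.0% in the third and 45.5% in the highest.

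Counted once each, the RNAPol2 peaks of these sites numbered 3791, which was 7.64% of the RNAPol2 list. Their median fold enrichment was 7.74 (7.45 to 7.95), and that of the 32690 RNAPol2 peaks without Myc, TEAD or YAP was 5.02 (4.99 to 5.02), a ratio of 1.54. The ratio was 1.57 with pileup in place of fold enrichment. Their median width was 746 bp, and that of RNAPol2 peaks without the 3 factors was 425 bp. A wide RNAPol2 peak is more likely to be met by a TEAD peak, and the part of width in the height could be read only within bands of width, given below.

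The 3791 RNAPol2 peaks were of unlike kinds. In 1000 of them, which carried 1207 of the selected TEAD peaks (29.0%, 27.6% to 30.3%), Myc or YAP was bound elsewhere under the same RNAPol2 peak. In the other 2791, which carried 2961, no Myc or YAP peak lay anywhere in the RNAPol2 peak. The share of 29.0% depended on how near Myc or YAP was allowed to be, and was 7.65% when no such peak lay within 1000 bp of the TEAD peak. Counted by RNAPol2 peak, the share with Myc or YAP was 26.4%, close to the 27.3% of the RNAPol2 list as a whole. Myc was the commoner of these neighbours, with 26.3% of the selected peaks sharing their RNAPol2 peak with Myc and 11.9% with YAP. Among stronger TEAD-only peaks with RNAPol2 the share was 13.6% (10.9% to 17.0%).

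RNAPol2 height differed sharply between these kinds. RNAPol2 peaks of the selected sites with Myc or YAP had a median fold enrichment of 21.1 and a median width of 1845 bp, and those without had 6.10 and 554 bp. Within the kind with Myc or YAP, the median fold enrichment was 20.8 with Myc and no YAP (635 peaks), 8.92 (7.97 to 10.54) with YAP and no Myc (92 peaks) and 26.3 with both (273 peaks). The median was therefore higher with Myc. It was also higher with YAP, both in the presence of Myc and, against the 6.10 with neither factor, in its absence. Widths differed too, with medians of 1659 bp with Myc and no YAP, 1392 bp with YAP and no Myc and 2961 bp with both. Among RNAPol2 peaks of the selected sites with neither factor, those of 1000 to 2000 bp had a median fold enrichment of 8.57 (7.95 to 9). The part of width in these differences was not tested. RNAPol2 peaks with Myc and TEAD and no YAP had 20.3 (n = 6080) over the whole list, and those with Myc alone had 14.6 (n = 2919).

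For RNAPol2 peaks without Myc or YAP, those with a weaker TEAD-only peak remained higher than those with no factor, by a smaller margin. The medians were 6.10 (5.99 to 6.28) and 5.02, a ratio of 1.22. Within bands of RNAPol2 width, the ratio was 1.06 under 400 bp, 1.16 from there to 600 bp, 1.41 up to 1000 bp, 1.29 up to 2000 bp and 1.23 beyond. The excess was therefore present in all 5 bands of width, and least in the narrowest. RNAPol2 peaks with YAP and TEAD and no Myc had a median of 5.86 (5.76 to 6.01, n = 1781), which was close to the 6.10 of the weaker TEAD-only sites (ratio 1.04).

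**Figure D2:**
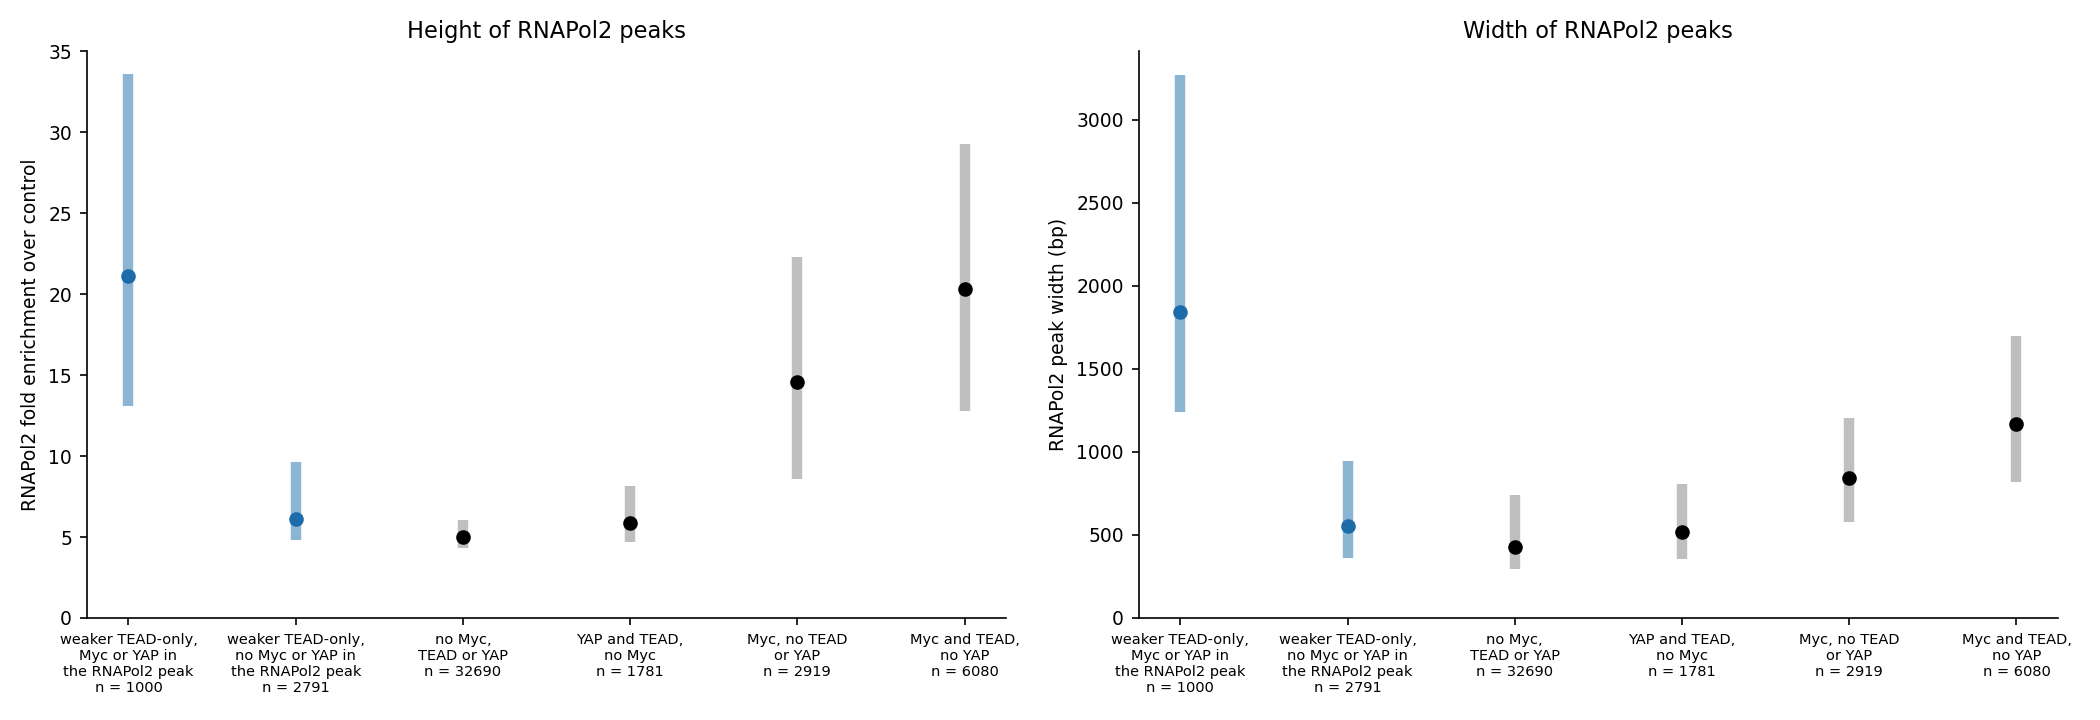
Fold enrichment over control (left) and width in bp (right) of RNAPol2 peaks by the factors they hold, with blue marking the RNAPol2 peaks that overlap a weaker TEAD-only peak and grey the other classes (YAP and TEAD, and Myc and TEAD, include some of the blue peaks). Points are medians and bars run between the quartiles; the medians of fold enrichment were 21.1 and 6.10 for the blue classes with and without Myc or YAP, and 5.02 for RNAPol2 peaks with no factor.

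The TEAD summit lay inside the RNAPol2 peak at 82.6% of the selected sites (81.4% to 83.7%), and the whole TEAD peak lay inside it at 51.0%. The summits of TEAD and RNAPol2 were a median of 234.5 bp apart (224 to 247). They were within 100 bp of each other at 23.3% of sites, within 250 bp at 52.0% and over 1000 bp apart at 16.4%. The summit was inside at similar shares of stronger TEAD-only peaks with RNAPol2 (85.3%, 81.9% to 88.2%) and of weaker YAP and TEAD peaks with RNAPol2 and no Myc (81.9%, 78.0% to 85.2%). In weaker Myc and TEAD peaks with RNAPol2 and no YAP, the TEAD summit was inside the RNAPol2 peak at 95.4% and over 1000 bp from its summit at 5.30%, with a median distance of 197 bp. Where the RNAPol2 peak held Myc or YAP, the median distance of the selected peaks was 837 bp (786 to 909), and where it held neither, 163 bp (157 to 169). Counted per TEAD peak, the RNAPol2 peaks were 2142 bp wide in the median with Myc or YAP and 581 bp without, and the part of width in the distances was not tested. The selection also kept these TEAD peaks off the bases under Myc and YAP peaks, and its part in the distances was not tested.

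**Figure D3:**
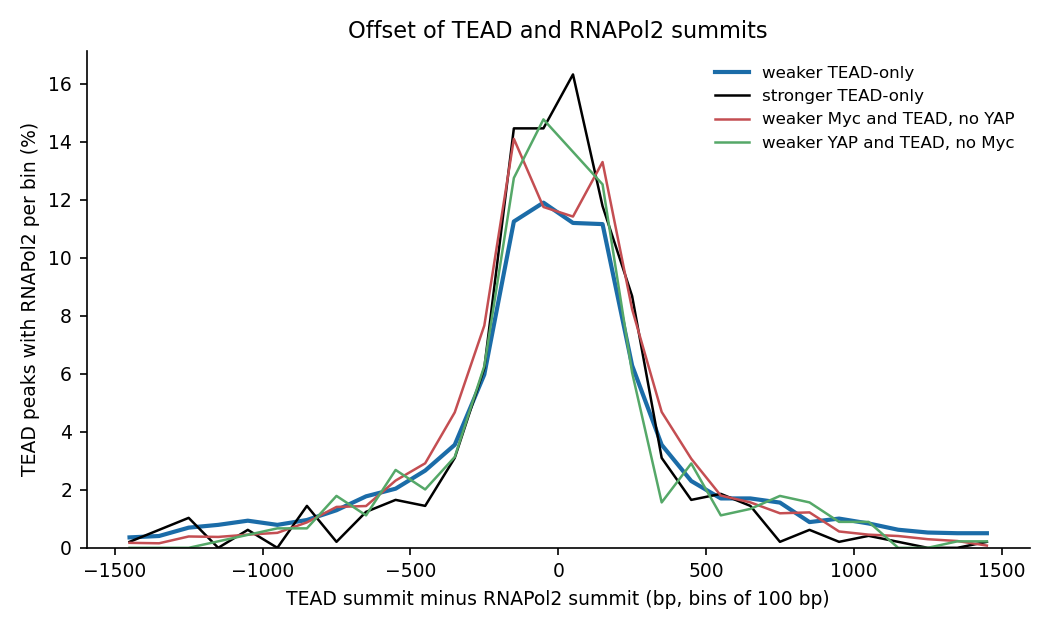
Percentage of TEAD peaks with RNAPol2 per 100 bp bin of the offset of the TEAD summit from the RNAPol2 summit (bp, forward strand coordinates), for weaker TEAD-only peaks (thick blue) and 3 other classes. The highest bin of the weaker TEAD-only peaks held 11.9% of them, and 16.4% lay over 1000 bp from the RNAPol2 summit, partly beyond the plotted range.

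Several other features of these sites moved with RNAPol2 height. Over the 4 quartile groups of the RNAPol2 list, low to high, 2.30%, 3.54%, 9.23% and 56.5% of the sites shared the RNAPol2 peak with Myc or YAP. The median summit distance over the same groups was 153, 144, 174 and 573.5 bp, and the TEAD summit was inside the RNAPol2 peak at 64.7%, 73.6%, 85.2% and 89.4% of sites. The top group stood apart in summit distance, whereas the share with the summit inside changed mostly among the lower 3. The median RNAPol2 width over the groups was 346, 409.5, 686.5 and 1800 bp, and its part in these differences was not tested. The median TEAD pileup was 28, 27, 26 and 24 over the groups, and the median TEAD fold enrichment was 6.48, 6.83, 6.94 and 6.40.

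Among the selected sites, bands of lower TEAD pileup had a higher median RNAPol2 fold enrichment. By band of TEAD pileup, low to high, the median RNAPol2 fold enrichment of the selected sites was 10.99 at 13 to 19, 8.58 at 20 to 29, 7.26 at 30 to 39 and 6.49 at 40 to 49. The share of sites whose RNAPol2 peak held Myc or YAP followed the same order, with 39.0%, 30.2%, 24.95% and 16.2%. Among sites whose RNAPol2 peak held neither, the medians were closer together, at 6.91 (6.56 to 7.53), 6.49, 5.86 and 5.77 (5.59 to 6.22). Fold enrichment is divided by the control background, and the TEAD pileup of the bands is not. Over the quartile groups of RNAPol2 fold enrichment, low to high, the median control background, as a multiple of its lowest level, was 1.34, 1.18, 1.12 and 1.12. The part of the control background in the bands was not tested. Site by site, the relation of TEAD to RNAPol2 was weak. Spearman's rho between TEAD and RNAPol2 pileup was −0.09 over the 4168 sites, 0.05 over the 1207 whose RNAPol2 peak held Myc or YAP, and −0.0035 over the 2961 whose RNAPol2 peak held neither. Spearman's rho between TEAD and RNAPol2 fold enrichment was −0.05 over all of them, 0.05 over the first kind, and 0.04 over the second. These sites share a pair of libraries and a control, and the limit on the pileup cuts the range of TEAD values, so the correlations are a description. TEAD fold enrichment had a rho of −0.38 with the control level of the same site, which divides it.

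The single sites at the ends of these ranges are given next. The highest RNAPol2 fold enrichment was 83.09, at chr9:88416897-88417123, where TEAD had a pileup of 21 and a fold enrichment of 6.68 and a Myc peak lay 56 bp away. At chr6:51417708-51417947 RNAPol2 had 80.16 in a peak of 18798 bp, with TEAD at a pileup of 21 and a Myc peak 538 bp away. At chr13:81022615-81022804 RNAPol2 had 79.12, TEAD a pileup of 19, and a Myc peak lay 75 bp away. The next sites, chr6:72378190-72378410 and chr6:72381460-72381720, shared an RNAPol2 peak of 12840 bp and fold enrichment 78.28, with TEAD pileups of 28 and 20. The RNAPol2 peak of each of these 5 sites held Myc, and that of the 3 sites on chromosome 6 held YAP as well.

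At the 5 sites with the highest TEAD fold enrichment, RNAPol2 fold enrichment was below the median of 8.35 over all selected sites. The first 3 are those named above as just inside the limit, where RNAPol2 had a fold enrichment of 4.40 (chr12), 6.91 (chr5) and 5.02 (chr7). At chrX:92853702-92854055 TEAD had 15.59 and RNAPol2 5.65, and at chr7:89565149-89566139 TEAD had 15.47 and RNAPol2 5.02. None of the 5 shared its RNAPol2 peak with Myc or YAP, and their RNAPol2 summits lay 57 to 151 bp from the TEAD summits. The median over selected sites whose RNAPol2 peak held neither factor was 6.28. Against it, RNAPol2 was higher at the chr5 site and lower at the others.

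Although Myc and YAP were absent from the selected peaks, they were often bound close by. A Myc or YAP peak lay within 5 kb of 52.4% of the sites with RNAPol2 (50.9% to 53.9%) and of 17.8% of those without (17.3% to 18.3%). When sites with Myc or YAP within 1000 bp were left out, the shares were 29.4% with RNAPol2 and 12.6% without. The share over all 31646 TEAD-only peaks was 22.5%. The difference was larger for Myc, with 44.8% and 10.3%, than for YAP, with 25.05% and 11.5%. The median distance to Myc was 7.16 kb with RNAPol2 and 52.8 kb without, and that to YAP was 25.4 kb and 49.0 kb. Within 1 kb, Myc lay near 28.1% of sites with RNAPol2 and 3.29% of those without.

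**Figure D4:**
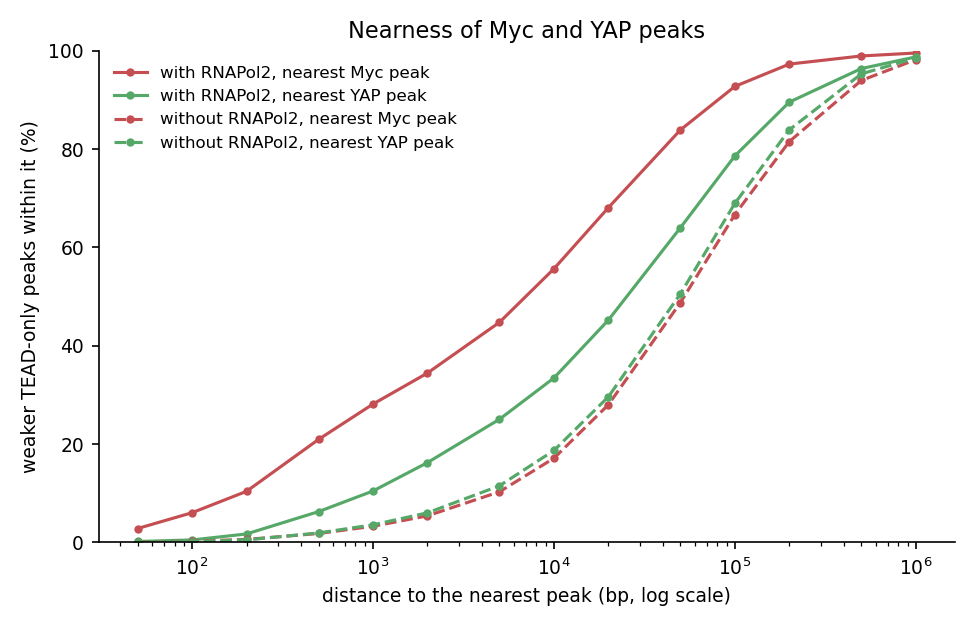
Percentage of weaker TEAD-only peaks (vertical axis) that had a Myc peak (red) or a YAP peak (green) within a given distance in bp (horizontal axis, log scale), for peaks with RNAPol2 (solid) and without (dashed). At 10000 bp the red lines stood at 55.7% with RNAPol2 and 17.1% without, and the green lines at 33.5% and 18.7%.

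Where the RNAPol2 peak held Myc or YAP, a short distance follows from that split, and the nearest such peak lay a median of 297 bp from the TEAD peak. Where it held neither, the median was 10516 bp and 33.9% of sites had Myc or YAP within 5 kb. Counted from RNAPol2 peaks that held neither, Myc or YAP lay within 5 kb of 35.5% (33.8% to 37.3%) of the 2791 with a weaker TEAD-only peak and of 25.8% (25.3% to 26.3%) of the 32690 with no factor. The RNAPol2 peaks at the selected sites were also the wider ones, and the part of width in this difference was not tested.

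Other TEAD peaks were near too. Another TEAD peak lay within 5 kb of 63.4% of the selected sites and of 39.0% of weaker TEAD-only peaks without RNAPol2, with medians of 2.18 kb and 7.96 kb. A TEAD peak with YAP lay within 5 kb of 24.4% and 11.0%. At the other end were sites far from both other factors: at chrX:109424669-109424994 the nearest Myc or YAP peak was 2719 kb away, with TEAD at a fold enrichment of 7.81 and RNAPol2 at 13.11. At chrX:110299030-110299252 it was 1845 kb away with RNAPol2 at 17.79, and at chrX:106290504-106290764 it was 1279 kb away with RNAPol2 at 17.58. RNAPol2 fold enrichment at these 3 sites was above the median of 6.28 for sites whose RNAPol2 peak held no Myc or YAP.

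Most RNAPol2 peaks carried a single site, but a few wide ones carried many. Of the 3791 RNAPol2 peaks, 3506 held 1 selected TEAD peak, 285 held 2 or more (662 TEAD peaks in all) and 19 held 4 or more. Those with 2 or more had a median width of 3034 bp, a median fold enrichment of 17.0 and Myc or YAP in 46.0% (40.3% to 51.8%), and those with 1 had 690 bp, 7.33 and 24.8% (23.4% to 26.2%). A wider RNAPol2 peak has more bases that can meet other peaks, and the part of width in the other 2 differences was not tested. Of the 758 RNAPol2 peaks over 5 kb, 33.1% held at least 1 of the sites, and these peaks carried 10.1% of the selected TEAD peaks. TEAD peaks of 1 RNAPol2 peak share its height and neighbours, and are not independent observations of it.

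The RNAPol2 peak with the most sites was chr9:41387756-41404886, with a width of 17131 bp and an RNAPol2 fold enrichment of 46.05. It held 17 TEAD peaks, of which 13 were weaker TEAD-only peaks with pileups between 16 and 48 (median 26), and 4 Myc and 4 YAP peaks. The 13 summits were spread over nearly the whole width, the first 91 bp and the last 15371 bp from its start, with a median spacing of 756 bp. The highest TEAD peak in it, with a pileup of 106, held Myc and YAP and stood among the weaker ones.

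The next was chr2:115880959-115904103, with a width of 23145 bp and a fold enrichment of 42.77, in which 8 of 11 TEAD peaks were selected sites with pileups between 17 and 48. The other 3 held Myc, with pileups of 19, 25 and 23, and no YAP peak lay in it. In chr6:52107956-52125826, with a width of 17871 bp and a fold enrichment of 39.14, 7 of 11 TEAD peaks were selected sites with pileups between 15 and 38. The other 4 held Myc, 3 of them with YAP as well, and the highest had a pileup of 147. Weaker TEAD-only peaks thus stood beside TEAD peaks with Myc in all 3 of these RNAPol2 peaks, and beside YAP in the ones on chromosomes 9 and 6.

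**Figure D5:**
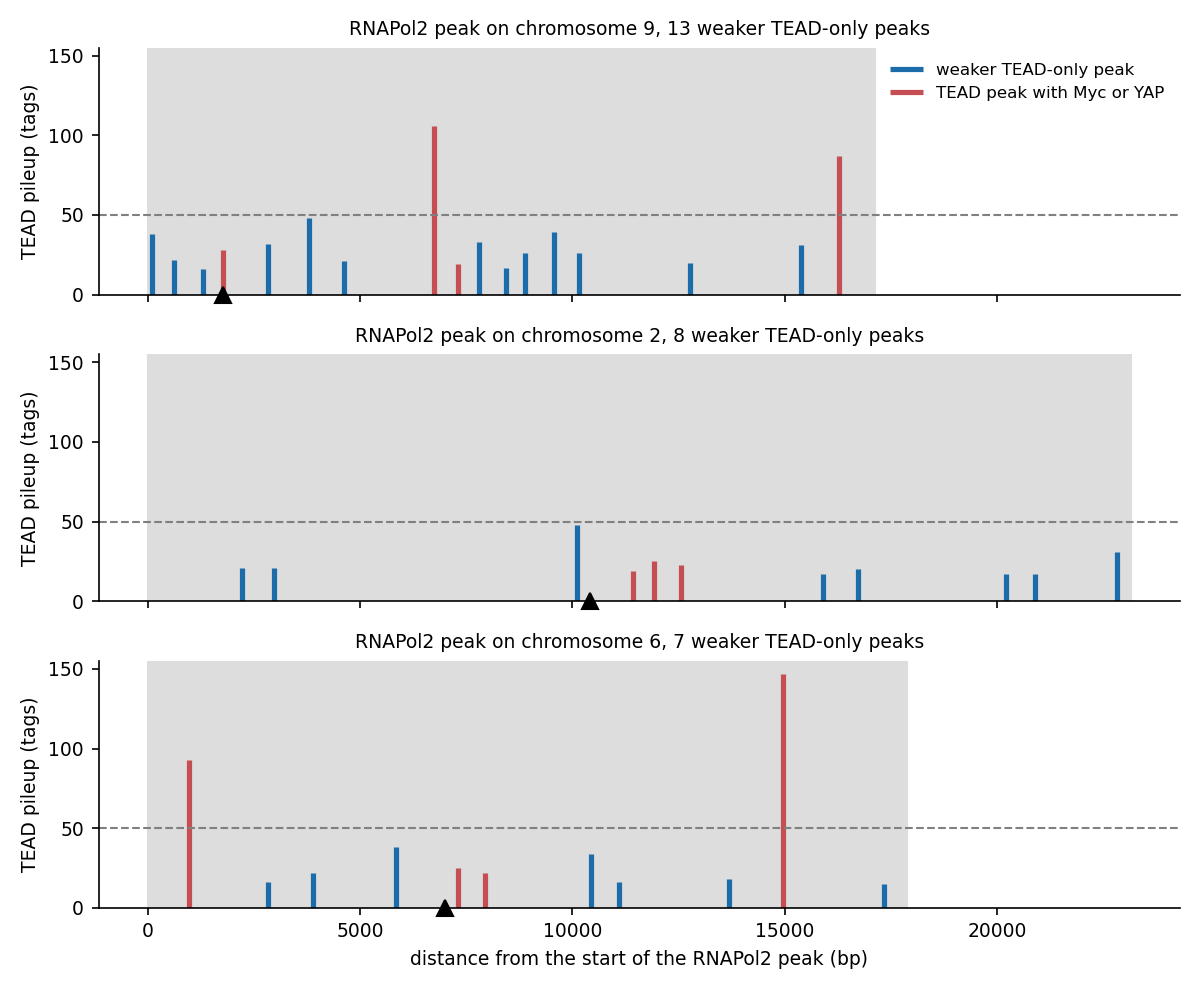
TEAD peaks in the 3 RNAPol2 peaks that hold the most weaker TEAD-only peaks, by distance of the TEAD summit from the start of the RNAPol2 peak (bp, horizontal) and TEAD pileup (tags, vertical). Blue bars are weaker TEAD-only peaks, red bars TEAD peaks with Myc or YAP, the grey area is the RNAPol2 peak, the triangle its summit and the dashed line a pileup of 50; the tallest red bars, 106 on chromosome 9 and 147 on chromosome 6, stood among blue bars of 48 or lower.

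Along the genome, the sites were found on every chromosome from 1 to 19 and on X, with 3 more on unplaced sequences. The share of weaker TEAD-only peaks with RNAPol2 ran between 11.2% on chromosome 12 and 18.7% on chromosome 7, with a median of 13.9% over the 20 chromosomes. It followed the number of RNAPol2 peaks per TEAD peak on the chromosome (Spearman's rho 0.77 over 20 chromosomes, which share the same libraries). More RNAPol2 peaks per TEAD peak leave more for a TEAD peak to meet, and that overlap chose the sites, so this relation is a description. No mm9 gene annotation or sequence was used, so whether a site lies at a promoter, in a gene or between genes is not analysed here.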

How the data were processed

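MACS2 2.0.9, BWA 0.6.2 and SAMtools, with mm9 as the build, are named in the submitters' processing notes. Per the file headers, narrow peaks were called on each sample by itself, against 1 control library, at a p-value cutoff of 1e-05; at most 2 tags of 51 bp were kept at a position, with the bigger library scaled down to the smaller. Whether the control is the deposited input is not stated there. The authors deposited the pileup signal at each summit, its −log10 p-value and −log10 q-value, and the fold enrichment, a ratio of pileup to local background, together with other values (1-based positions and summits).

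Overlaps, distances between the nearest ends of peaks, and medians were computed with pandas 2.3.3, numpy 2.4.6 and scipy 1.17.1 under Python 3.11.15, with figures by matplotlib 3.10.9, and tested on simulated peaks. A TEAD peak that met several RNAPol2 peaks took the one sharing most bp. Groups came from sample titles. Shares have Wilson intervals and medians have 95% intervals from binomial ranks. Named regions were the 5 sites highest in RNAPol2 and the 5 highest in TEAD fold enrichment, the 3 RNAPol2 peaks with most sites, the 3 sites on each side of the pileup limit, and the 3 farthest from Myc and YAP. Sites, lists and alternatives were chosen with earlier results of these data known. Gene lists were not used, since the annotation at hand is of another build.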

Additional observations from a re-analysis of the deposited data

How the results depend on the processing

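Of 83 values of 10 results under 9 alternatives, 39 stayed within their counting interval (a count within 1.5 times), 44 moved and none changed sign. Each alternative below gives its moved values. In every one that gave both, Myc or YAP within 5 kb stayed commoner with RNAPol2 than without.

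With an overlap of 50% of the shorter peak, which lets a TEAD peak touch Myc or YAP, the median RNAPol2 fold enrichment was 9.53, its ratio to RNAPol2 peaks without the 3 factors 1.90, the summit inside 93.5%, the RNAPol2 peak with Myc or YAP 38.7%, and Myc or YAP within 5 kb 59.4% with RNAPol2 and 19.4% without. A −log10 q of at least 10 was then required of both TEAD and RNAPol2 peaks, with the Myc and YAP lists left whole. This left 1730 sites, or 11.0% of the weaker TEAD-only peaks that met it. RNAPol2 was at 9.84, TEAD at 8.12 and the summit inside at 87.0%. Myc or YAP lay in the RNAPol2 peak at 30.7% and within 5 kb of sites without RNAPol2 at 17.2%, and rho was −0.0174.

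With no YAP or Myc within 1000 bp, the RNAPol2 share was 10.7%, the median RNAPol2 fold enrichment 6.49, the ratio 1.29, the summit inside 83.7%, Myc or YAP in the RNAPol2 peak 7.65% and within 5 kb 29.4% with RNAPol2 and 12.6% without, TEAD 6.79 and rho −0.00736. This setting moved the share of RNAPol2 peaks with Myc or YAP most. With a TEAD pileup under 30, 2775 sites (13.9%) had RNAPol2 at 8.58, a ratio of 1.71, Myc or YAP in the RNAPol2 peak at 32.3% and within 5 kb at 55.5%, TEAD at 6.05 and rho at −0.0224.

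Without chromosomes 10, 15 and 19, Myc or YAP lay within 5 kb of 16.6% of sites without RNAPol2, TEAD was 6.73 and rho −0.0936. Without the 1% of highest RNAPol2 peaks, the RNAPol2 share was 13.7%, RNAPol2 7.40, the ratio 1.47, and Myc or YAP in the RNAPol2 peak 25.8% and within 5 kb 50.8%. With pileup in place of fold enrichment, rho was −0.0873. With the TEAD summit inside the RNAPol2 peak, chosen after seeing the data, the RNAPol2 share was 11.8%, RNAPol2 8.42, the ratio 1.68 and Myc or YAP within 5 kb of sites without RNAPol2 18.8%. Leaving out mitochondrial, Y and unplaced sequences moved no value past its interval. With 1 library per antibody, leaving out a replicate was not possible, and the part of the lower depth of the Myc library in the lack of Myc was not tested.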
